A study of Mus musculus with 8 samples.

Results

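The BCL-2 family genes Bcl2, Bcl2l1, Mcl1, Bcl2l11, Bid, Bad, Bmf, Bbc3, Bak1 and Bax were followed in 2 mouse T cell leukemia lines. The 10 genes were chosen by name, as survival and death genes of the family, and every probe set that the platform annotation gave to a member was taken. Of the 10 genes, 9 had a probe set under their name, 31 probe sets in all among 45037 on the array. Bax was not analysed here. There were 6 probe sets for Mcl1, 5 each for Bcl2 and Bcl2l11, 4 for Bcl2l1, 3 each for Bid and Bmf, 2 each for Bad and Bak1 and 1 for Bbc3. Probe sets of a gene were read in the same RNA samples, so they are not independent measurements, and they need not read the same transcripts.

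The study asked what LEF1, a transcription factor of the TCF family, does in leukemias of mice that lack E2a. Both lines were E2a-/- on the FVB/NJ strain and were grown from the thymus of moribund mice. The Lef1F/F line (E2a-/-Lef1F/F) also carried loxP sites around the part of Lef1 that encodes the DNA binding domain on both alleles, and the E2a-/- line carried none. Each line was infected with MigR1-Cre, a retrovirus that produces Cre and GFP, or with MigR1, which produces GFP alone, and GFP+ cells were sorted 72 hours later. There were 4 groups of 2 arrays each: Lef1F/F MigR1-Cre, Lef1F/F MigR1, E2a-/- MigR1-Cre and E2a-/- MigR1. Titles and source names of the samples gave the same groups, which were used, but a separate label for the virus contradicts them in 2 groups: it names MigR1 for the Cre arrays of the E2a-/- line and MigR1-Cre for the MigR1 arrays of the Lef1F/F line. Each genotype was represented by 1 line, so line and genotype cannot be told apart. The labels do not say that the 2 arrays of a group came from separate cultures, and a p-value here weighs a difference only against how far such arrays lie apart, which may be technical.

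BCL-2 family proteins set the threshold at which a cell enters apoptosis through its mitochondria. BCL-2, BCL-XL and MCL-1 bind and restrain the proteins that kill, BAX and BAK form pores in the outer mitochondrial membrane, and the BH3-only proteins sense stress and either free or directly activate the pore formers. Developing T cells pass through stages that lean on different survival members, and BIM is a main executor of the death of self-reactive thymocytes. In T cells, many of these proteins are also controlled after transcription, by phosphorylation, cleavage and degradation, which an RNA array does not read.

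Promoter sequences of the members that the results turn on are given first, from RefSeq (GRCm38.p6), each with 250 bases before and 50 after the annotated start, 5′ to 3′ on the strand of the gene. The RefSeq sequence is that of the reference strain and not of FVB/NJ. Bcl2 is shown because its RNA differed most between the lines and Bcl2l11 because it had the largest difference with MigR1-Cre in the Lef1F/F line. Capitals mark an E-box, CANNTG, the motif that E2A and other E proteins bind.
Bcl2, chr1:106714241-106714540, minus strand: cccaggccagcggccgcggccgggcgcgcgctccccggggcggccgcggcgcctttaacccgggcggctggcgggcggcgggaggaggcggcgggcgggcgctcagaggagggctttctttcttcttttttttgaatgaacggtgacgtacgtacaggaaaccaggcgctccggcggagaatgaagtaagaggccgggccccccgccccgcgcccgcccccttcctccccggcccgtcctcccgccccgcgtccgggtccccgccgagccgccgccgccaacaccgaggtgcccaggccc
Bcl2l11 first start, chr2:128125788-128126087, plus strand: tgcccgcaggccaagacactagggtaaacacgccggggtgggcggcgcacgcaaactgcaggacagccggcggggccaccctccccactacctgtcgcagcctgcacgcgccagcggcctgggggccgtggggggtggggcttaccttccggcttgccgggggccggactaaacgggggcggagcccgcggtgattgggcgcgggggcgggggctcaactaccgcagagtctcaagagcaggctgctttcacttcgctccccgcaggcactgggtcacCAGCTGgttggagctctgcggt
Bcl2l11 second start, chr2:128127325-128127624, plus strand: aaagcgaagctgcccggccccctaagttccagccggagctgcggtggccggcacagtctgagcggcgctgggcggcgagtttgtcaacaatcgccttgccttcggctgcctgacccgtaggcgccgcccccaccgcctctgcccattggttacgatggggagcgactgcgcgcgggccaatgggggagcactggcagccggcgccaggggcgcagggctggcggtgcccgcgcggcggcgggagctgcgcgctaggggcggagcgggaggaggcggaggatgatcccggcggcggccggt
The first Bcl2l11 window held 1 E-box, 28 bases downstream of the start, and the other 2 windows held none. Over the 17 windows of the 9 measured members, searched on both strands, 12 held an E-box, against 72.3% of 32851 windows of the same length. The TCF/LEF core CTTTGA was in 0 of the 17 windows on either strand, against 16% of all windows. The window of Bax, the member with no probe set here, was outside that count and held 1 such core, 194 bases upstream of the start, and 2 E-boxes. A match is a description of these letters only, and its absence says nothing of binding elsewhere.

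RMA intensities, the normalized brightness of a probe set in linear units, ran between 35.25 and 25588.25 with array medians of 88.88 to 91.02. Differences are given as log2 values from a limma fit over all probe sets, with the moderated standard error, and p-values were adjusted by Benjamini-Hochberg over all 45037 probe sets, with a threshold of 0.05. The probe set of a gene with the highest mean log2 intensity over the arrays is called its brightest. In these bulk RNA samples, a change in the share of cells that carry a transcript and a change in the RNA per cell cannot be told apart. Lef1 read 1903 and 1678 units in Lef1F/F MigR1-Cre arrays, against 6918 and 6126 in Lef1F/F MigR1 arrays (1454734_at, log2 difference -1.87 ± 0.09, adjusted p = 0.000703 in limma). It read 3008 and 3416 units in E2a-/- MigR1-Cre arrays and 3288 and 3337 in E2a-/- MigR1 arrays. A second Lef1 probe set, 1421299_a_at, read 236 and 237 units in Lef1F/F MigR1-Cre arrays, against 1485 and 1262 in Lef1F/F MigR1 arrays. Its log2 difference was -2.54 ± 0.11 (adjusted p = 0.000584 in limma). In the E2a-/- line it read 605 and 628 units with MigR1-Cre, against 610 and 753 with MigR1. Where these probe sets lie relative to the floxed part was not looked up. The Lef1F/F groups thus differed in Lef1 as their titles give, whereas the separate virus label names MigR1-Cre for both. In the E2a-/- line, where Lef1 is not floxed, its readings cannot tell the labels apart. All 13 measured T lineage markers were above the array median in all 8 arrays, whereas 2 of 6 B cell, 1 of 8 myeloid and 1 of 4 erythroid markers were. Of 6 stromal and 5 natural killer cell markers, 2 and 1 were above it in all arrays.

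The first comparison asked whether loss of floxed Lef1 moved these genes within 72 hours. It moved none of them past the threshold. In Lef1F/F MigR1-Cre against Lef1F/F MigR1 arrays, 0 of 31 member probe sets had an adjusted p under 0.05, where 0.167% of all probe sets did, and the smallest adjusted p of a member was 0.569. At an unadjusted p under 0.05 there were 2 member probe sets, both higher, against 4.66% of all probe sets. The member log2 differences ran between -0.15 and 0.28, with a median of -0.03 beside 0.00 over all probe sets. The 95% intervals of 29 of the 31 lay inside a 1.5-fold change in either direction, and those of all 31 inside a 2-fold change. The exceptions at 1.5-fold were Mcl1 1416881_at, with an interval of -0.59 to 0.38, and Bid 1448560_at, with -0.64 to 0.38. The arrays of the groups did not overlap at 9 of the 31 probe sets, 3 higher and 6 lower, close to the 29.1% of all probe sets with no overlap. No cell type marker passed the threshold here. The sum of 5 natural killer cell markers was 9281 to 9974 units in Lef1F/F MigR1-Cre arrays, against 7746 to 8366 in Lef1F/F MigR1 arrays. Only 1 of the 5 was above the array median in both arrays of either group, and their median log2 difference was 0.01. The part of this sum in the values below was not tested.

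Bcl2l11 encodes BIM, a BH3-only protein that binds every pro-survival member. Its brightest probe set, 1456005_a_at, read 2019 and 2312 units in Lef1F/F MigR1-Cre arrays, against 1785 and 1783 in Lef1F/F MigR1 arrays. A second, 1435449_at, read 558 and 595 units in Lef1F/F MigR1-Cre arrays, against 475 and 513 in Lef1F/F MigR1 arrays. Both MigR1-Cre arrays were above both MigR1 arrays at these probe sets, and they were the 2 member probe sets with an unadjusted p under 0.05. The log2 differences were 0.28 ± 0.07 (95% interval 0.10 to 0.45, adjusted p = 0.569 in limma) and 0.22 ± 0.06 (0.07 to 0.37, adjusted p = 0.655 in limma). Neither passed the threshold over all probe sets. The other 3 Bcl2l11 probe sets differed by 0.04 (1435448_at), 0.14 (1456006_at) and 0.00 (1426334_a_at) on the log2 scale, and their arrays overlapped between the groups. Probe set 1456006_at read 328 and 393 units in Lef1F/F MigR1-Cre arrays, against 311 and 343 in Lef1F/F MigR1 arrays. In the E2a-/- line 1456005_a_at read 1710 and 1733 units with MigR1-Cre, against 1661 and 1742 with MigR1, a log2 difference of 0.02. The difference of the Cre effects between the lines was 0.26 ± 0.11 at 1456005_a_at (unadjusted p = 0.0395, adjusted p = 1 in limma).

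The survival members did not pass the threshold either. Bcl2 1457687_at, its brightest probe set, read 238 and 236 units in Lef1F/F MigR1-Cre arrays, against 259 and 255 in Lef1F/F MigR1 arrays. The log2 difference was -0.12 ± 0.06 (adjusted p = 1 in limma), and the other 4 Bcl2 probe sets differed by -0.09 to -0.03. Bcl2l1, which encodes BCL-XL, read 381 and 373 units in Lef1F/F MigR1-Cre arrays, against 405 and 432 in Lef1F/F MigR1 arrays (1420888_at). The groups did not overlap there, and the log2 difference was -0.15 ± 0.07 (unadjusted p = 0.0559, adjusted p = 1 in limma). Its dim probe sets 1420887_a_at, 1426050_at and 1426191_a_at differed by -0.11, 0.02 and 0.06. Mcl1, whose protein turns over quickly, read 2581 and 3076 units in Lef1F/F MigR1-Cre arrays, against 2688 and 3205 in Lef1F/F MigR1 arrays (1448503_at). The arrays of a group were farther apart than the group means, and the 95% interval of the log2 difference was -0.31 to 0.19. Its other 5 probe sets differed by -0.10 to -0.00.

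The remaining death genes also had values within a small range. Bid encodes a protein that caspase-8 cleaves to link death receptors with mitochondria, and its brightest probe set read 761 and 681 units in Lef1F/F MigR1-Cre arrays, against 825 and 695 in Lef1F/F MigR1 arrays. Bad encodes a BH3-only protein held in check by survival kinases, and it read 606 and 534 units in Lef1F/F MigR1-Cre arrays, against 550 and 525 in Lef1F/F MigR1 arrays (1416582_a_at). Both sets of arrays overlapped. Bmf, which encodes a BH3-only protein tied to the cytoskeleton, read 236 and 282 units in Lef1F/F MigR1-Cre arrays, against 215 and 260 in Lef1F/F MigR1 arrays (1454880_s_at). Bbc3 encodes PUMA, a BH3-only protein induced by p53, and its probe set 1423315_at read 163 and 163 units in Lef1F/F MigR1-Cre arrays, against 162 and 155 in Lef1F/F MigR1 arrays. Bak1, the pore former of the pair that was measured, read 292 and 245 units in Lef1F/F MigR1-Cre arrays, against 303 and 267 in Lef1F/F MigR1 arrays (1418991_at). The log2 differences at the brightest probe sets were -0.07 for Bid, 0.08 for Bad, 0.12 for Bmf, 0.04 for Bbc3 and -0.09 for Bak1. Their 95% intervals all held 0. The second probe sets of Bad, 1416583_at, and of Bak1, 1425716_s_at, differed by -0.06 and -0.03, those of Bid by -0.13 (1448560_at) and 0.20 (1447873_x_at), and those of Bmf by -0.15 (1458325_x_at) and -0.05 (1422995_at).

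**Figure D1:**
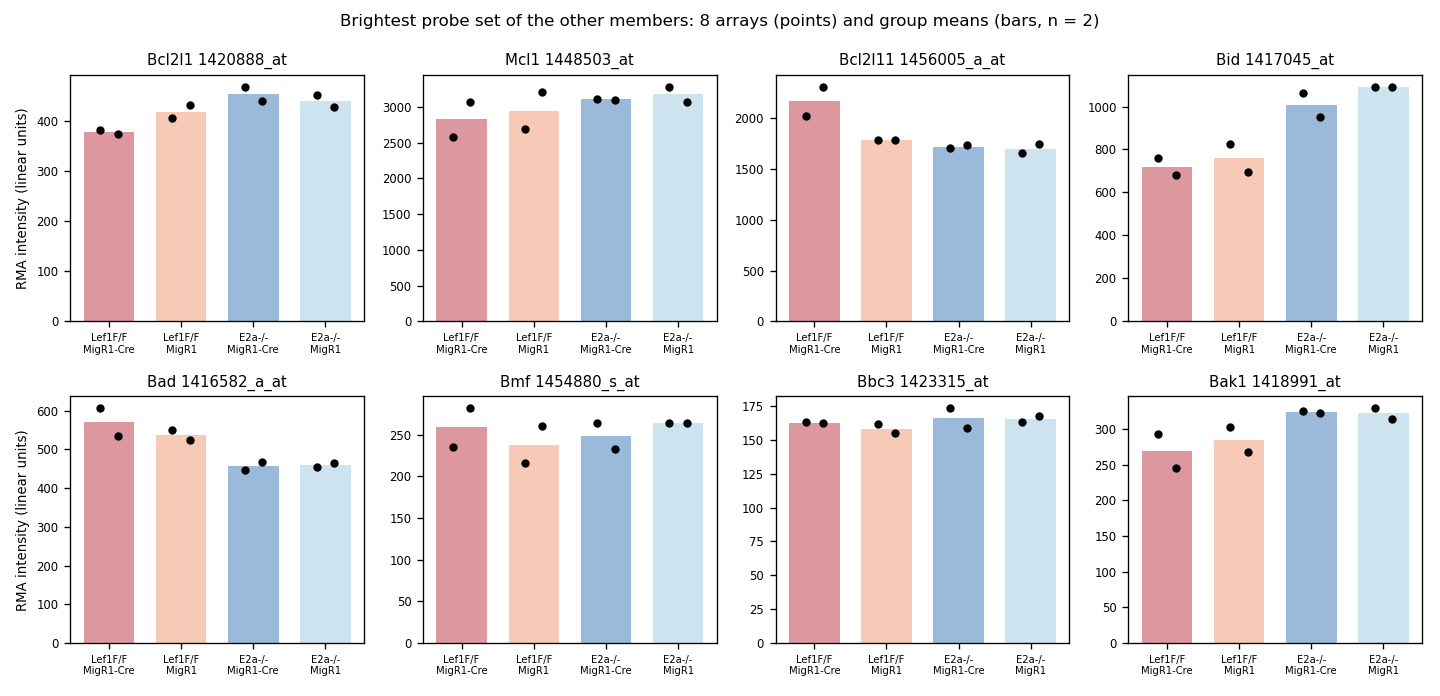
RMA intensity in linear units (vertical axis, from 0) of the brightest probe set of the 8 measured members other than Bcl2, in the 4 groups. Points are the 2 arrays of a group and bars their mean; Bcl2l11 reads 2019 and 2312 units in Lef1F/F MigR1-Cre arrays and Bid 761 and 681, against 1064 and 950 in E2a-/- MigR1-Cre arrays.

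By titles and source names, MigR1-Cre against MigR1 in the E2a-/- line, which has no floxed allele, gives the background of Cre itself, since both sides were infected. The separate virus label names MigR1 for these Cre arrays, and with no floxed allele the Lef1 readings cannot show whether Cre was active. There, 0 of 31 member probe sets passed the threshold, as did 0% of all probe sets, and 2 had an unadjusted p under 0.05, against 1.86% of all probe sets. The higher was Bcl2 1457687_at, at 58.8 and 63.5 units in E2a-/- MigR1-Cre arrays, against 51.5 and 51.4 in E2a-/- MigR1 arrays. The log2 difference was 0.25 ± 0.06 (unadjusted p = 0.00332, adjusted p = 1 in limma), and all 4 of these readings lay below the array medians. The lower was Bmf 1458325_x_at, at 88.5 and 89.7 units in E2a-/- MigR1-Cre arrays, against 100.4 and 104.1 in E2a-/- MigR1 arrays, a log2 difference of -0.20 ± 0.08 (unadjusted p = 0.0301, adjusted p = 1 in limma). Member differences ran between -0.20 and 0.25, and 29 of 31 intervals lay inside 1.5-fold. The 4 probe sets of Bcl2l1 differed by -0.12 to 0.10, the 2 of Bad by -0.09 to -0.02 and the 2 of Bak1 by -0.04 to 0.01. The arrays did not overlap at 13 of 31 probe sets, 7 higher and 6 lower, against 31.4% of all probe sets.

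Set against each other, the Cre effects of the lines did not differ past the threshold at any member. The limit given above for the virus label of the E2a-/- line holds for this comparison too. Here 0 of 31 probe sets were called, against 0.02% of all probe sets, and 2 had an unadjusted p under 0.05, against 3.23%. These were Bcl2l11 1456005_a_at, given above, and Bcl2 1457687_at, where the Cre effect in the Lef1F/F line was lower than in the E2a-/- line by a log2 difference of -0.37 ± 0.09 (adjusted p = 0.894 in limma). The Cre effect at Bcl2 1457687_at was -0.12 in the Lef1F/F line and 0.25 in the E2a-/- line, where all its readings lay below the array medians. The other 4 Bcl2 probe sets gave -0.23 to 0.09. Over all 31 member probe sets the values ran between -0.37 and 0.26. The 95% intervals of 26 of the 31 lay inside 1.5-fold, and those of all 31 inside 2-fold.

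**Figure D2:**
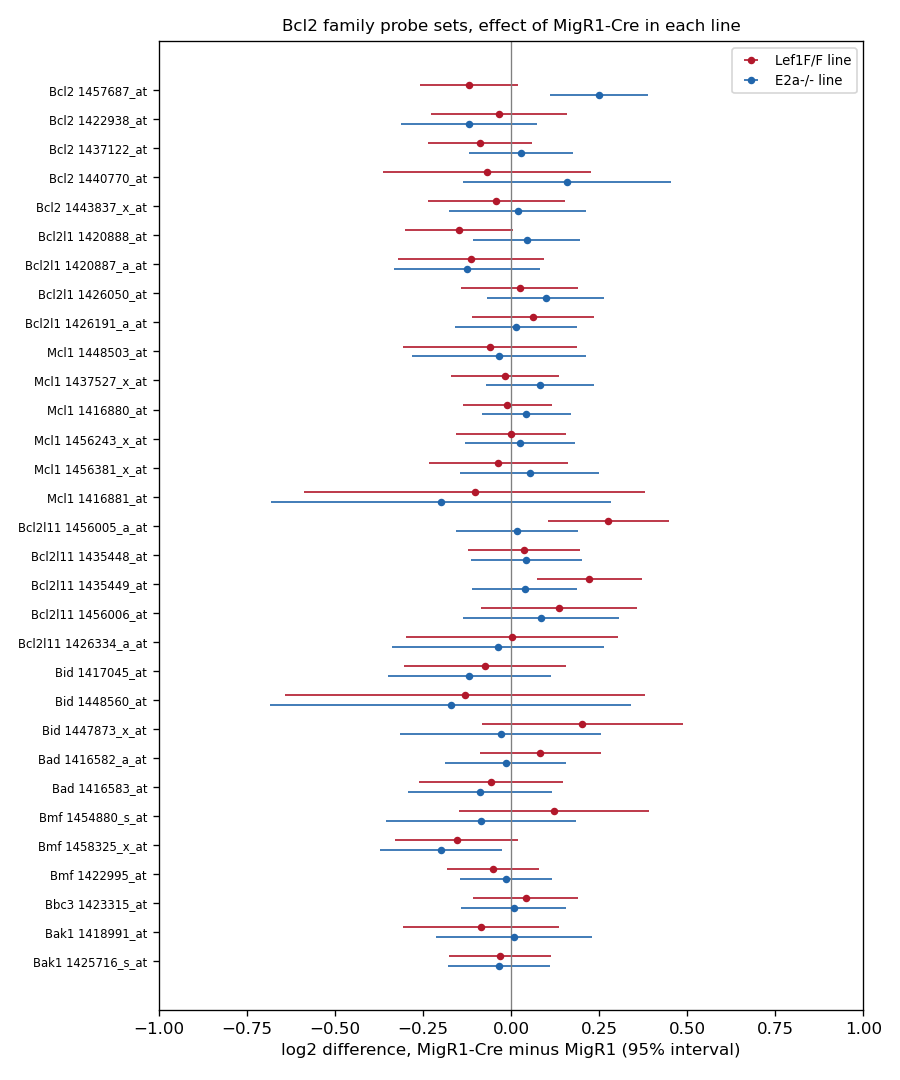
Log2 difference of MigR1-Cre minus MigR1 (horizontal axis) for the 31 member probe sets, in the Lef1F/F line (red) and the E2a-/- line (blue). Points are limma estimates from 2 arrays a group and lines their 95% intervals; the values run between -0.15 and 0.28 in the Lef1F/F line and between -0.20 and 0.25 in the E2a-/- line.

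The lines themselves differed. In Lef1F/F MigR1 against E2a-/- MigR1 arrays, 4 member probe sets were higher, all of Bcl2, and 1 was lower, of Bid. Over all probe sets, 10.7% passed, 6.06% higher and 4.67% lower. Without either E2a-/- MigR1 array the count was 3, all of Bcl2. The 4 higher probe sets belong to a single gene and count as 1 observation of it. The other 7 measured members had no probe set past the threshold. Arrays did not overlap at 18 of the 31 probe sets, 13 higher and 5 lower, against 50.2% of all probe sets. The MigR1 arrays of this comparison are those that also serve as reference within each line.

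Bcl2, on chromosome 1, read 259 and 255 units in Lef1F/F MigR1 arrays, against 51.5 and 51.4 in E2a-/- MigR1 arrays (1457687_at). The log2 difference was 2.32 ± 0.06 (95% interval 2.18 to 2.46, adjusted p = 2.74e-07 in limma). This is an estimated 5.00-fold higher intensity, with a 95% interval of 4.538 to 5.502. Probe set 1437122_at read 137 and 129 units in Lef1F/F MigR1 arrays, against 64.5 and 61.6 in E2a-/- MigR1 arrays (log2 difference 1.08 ± 0.06, adjusted p = 2.47e-05 in limma). Its estimated fold was 2.11, with a 95% interval of 1.903 to 2.335. Every Lef1F/F array was above every E2a-/- array at both probe sets, with either vector. Probe set 1440770_at read 102 and 81.9 units in Lef1F/F MigR1 arrays, against 53.3 and 54.3 in E2a-/- MigR1 arrays (0.77 ± 0.13, adjusted p = 0.00668 in limma), a call that was lost without either E2a-/- MigR1 array (adjusted p = 0.0674 or 0.0584). Probe set 1443837_x_at read 81.3 and 72.5 units in Lef1F/F MigR1 arrays, against 53.1 and 51.9 in E2a-/- MigR1 arrays (0.55 ± 0.08, adjusted p = 0.00441 in limma). The suffix x marks probes that may also bind other transcripts, and all its readings lay below the array medians. The exception among the 5 was 1422938_at, which read 123 and 117 units in Lef1F/F MigR1 arrays, against 97.1 and 110 in E2a-/- MigR1 arrays, a log2 difference of 0.21 ± 0.08 that did not pass (adjusted p = 0.183 in limma). The 5 probe sets of Bcl2 thus gave differences between 0.21 and 2.32 on the log2 scale, all above 0. The E2a-/- readings of 1457687_at, 1437122_at, 1440770_at and 1443837_x_at all lay below the array medians, in or below the range of B cell markers such as Ms4a1, which read 67.5 and 65.6 units in E2a-/- MigR1 arrays. The deposited values hold no detection call, so these readings were not told apart from background. The folds at 1457687_at and 1437122_at may therefore understate the RNA difference, and their intervals cover the spread of arrays only. At 1440770_at and 1443837_x_at the Lef1F/F readings were within the range of the B cell markers too, so no fold is given there. The same order held with MigR1-Cre, where 1457687_at read 238 and 236 units in Lef1F/F arrays, against 58.8 and 63.5 in E2a-/- arrays.

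**Figure D3:**
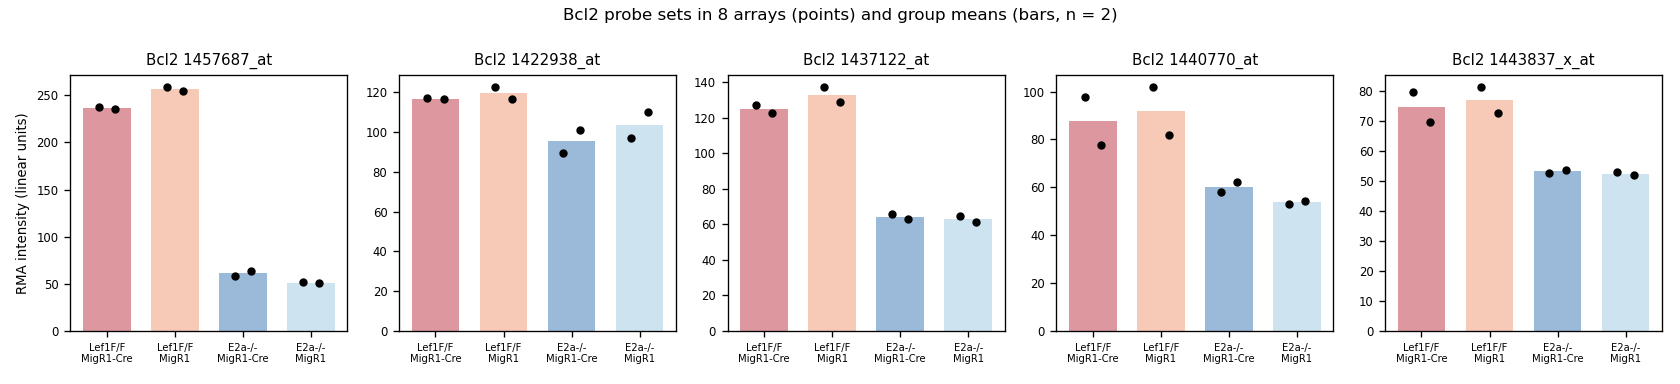
RMA intensity in linear units (vertical axis, from 0, a scale for each panel) of the 5 Bcl2 probe sets in the 4 groups. Points are the 2 arrays of a group and bars their mean; at 1457687_at the Lef1F/F MigR1 arrays read 259 and 255 units, against 51.5 and 51.4 in E2a-/- MigR1 arrays, while 1422938_at reads 123 and 117, against 97.1 and 110.

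Bid went the other way. Its brightest probe set, 1417045_at, read 825 and 695 units in Lef1F/F MigR1 arrays, against 1090 and 1093 in E2a-/- MigR1 arrays. The log2 difference was -0.53 ± 0.10 (95% interval -0.76 to -0.30, adjusted p = 0.0122 in limma), and the groups did not overlap. With MigR1-Cre the readings were 761 and 681 units in Lef1F/F arrays, against 1064 and 950 in E2a-/- arrays. The call rested on few arrays: without either E2a-/- MigR1 array the adjusted p was 0.0928 or 0.0923, and without the second Lef1F/F MigR1 array the log2 difference was -0.40 with an adjusted p of 0.0619 in limma. The other Bid probe sets, 1448560_at and 1447873_x_at, differed by -0.08 and -0.15 with overlapping arrays.

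The other members differed less between the lines. Bcl2l11 1435448_at read 898 and 947 units in Lef1F/F MigR1 arrays, against 793 and 784 in E2a-/- MigR1 arrays (0.23 ± 0.07, adjusted p = 0.083 in limma), and its brightest probe set differed by 0.07. Bad 1416582_a_at read 550 and 525 units in Lef1F/F MigR1 arrays, against 455 and 466 in E2a-/- MigR1 arrays (0.22 ± 0.07, adjusted p = 0.114 in limma). The groups did not overlap at either probe set, and neither difference passed the threshold. Bak1 1418991_at read 303 and 267 units in Lef1F/F MigR1 arrays, against 329 and 314 in E2a-/- MigR1 arrays (-0.18 ± 0.10, adjusted p = 0.351 in limma). The 6 Mcl1 probe sets differed by -0.12 to 0.13, the 4 of Bcl2l1 by -0.07 to 0.16 and the 3 of Bmf by -0.15 to 0.05. Bbc3 differed by -0.06, Bad 1416583_at by -0.05 and Bak1 1425716_s_at by 0.01. Bcl2l11 1435449_at, 1456006_at and 1426334_a_at differed by 0.12, 0.10 and -0.10. In order of the difference at the brightest probe set, Bcl2 came first with 2.32, followed by Bad with 0.22 and Bcl2l11 with 0.07, and Bid was last with -0.53. The interval of Bcl2 lay apart from that of Bad, and below it the intervals of all neighbors in the order overlapped. This place of Bcl2 rests on 1457687_at, which is its brightest probe set through the Lef1F/F arrays. In E2a-/- MigR1 arrays Bcl2 1422938_at read higher, at 97.1 and 110 units, against 51.5 and 51.4 for 1457687_at. The difference of 0.21 at 1422938_at had a 95% interval of 0.02 to 0.40, which overlaps that of Bad.

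**Figure D4:**
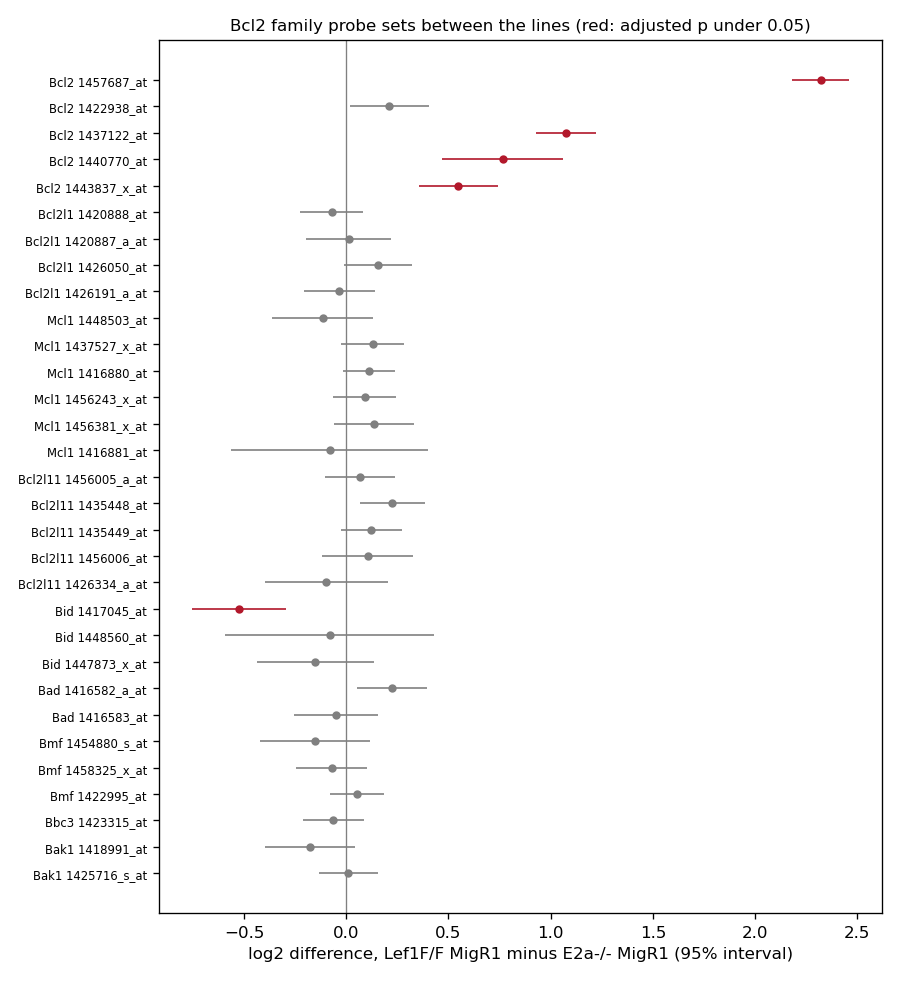
Log2 difference of Lef1F/F MigR1 minus E2a-/- MigR1 (horizontal axis) for the 31 member probe sets. Points are limma estimates from 2 arrays a group, lines their 95% intervals, and red marks an adjusted p under 0.05; 4 Bcl2 probe sets lie between 0.55 and 2.32 and Bid 1417045_at at -0.53.

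Other markers moved with the line as well, and their part in these differences was not tested. The summed intensity of 6 stromal markers was 779 to 784 units in Lef1F/F MigR1 arrays, against 4534 to 4582 in E2a-/- MigR1 arrays, with 1 marker higher and 1 lower past the threshold. The lower was Col1a2, a collagen chain, with a log2 difference of -3.78. Among 13 T lineage markers, whose sum was 40304 to 46449 units in Lef1F/F MigR1 arrays, against 38490 to 39026 in E2a-/- MigR1 arrays, 4 were higher and 2 lower, among them the CD8 chain Cd8a at -2.97. The sum of 5 natural killer cell markers was 7746 to 8366 units in Lef1F/F MigR1 arrays, against 6181 to 6612 in E2a-/- MigR1 arrays. Of these 5 markers, 1 was higher past the threshold and 4 were not called, with a list median of -0.03. The median line difference of genes on chromosome 1, which carries Bcl2, was -0.00 and that of chromosome 6, which carries Bid, was -0.00, as over all chromosomes.

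The genes around the family were counted at their brightest probe set, by lists of other family genes, the apoptosome and caspases, the death receptor pathway, and partners and regulators. In Lef1F/F MigR1-Cre against Lef1F/F MigR1 arrays, 0 of the 12, 17, 9 and 27 measured genes of these lists passed, where 0.286% of all genes did. The values nearest to the threshold were Tnfsf10 at 0.38 ± 0.08 (adjusted p = 0.243 in limma), which encodes the death ligand TRAIL, and Bcl2l14 at 0.25 ± 0.07 (adjusted p = 0.556 in limma). Foxo1, of a family of factors that activate Bcl2l11 transcription, was at -0.34 ± 0.11 (adjusted p = 0.765 in limma), and Htra2, a mitochondrial protease, at -0.21 ± 0.08 (adjusted p = 0.99 in limma). None of these lists had a call in the E2a-/- line either, where 0% of genes passed, or in the difference of the Cre effects, where 0.033% did. The lists of members themselves likewise held 0 calls in these 3 comparisons.

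Between the lines, some death pathway genes did pass, where 8.71% of all genes were higher and 5.88% lower. These shares cover all named genes, dim ones included, and the lists were not matched to them for brightness. Of the 17 measured apoptosome and caspase genes, 5 were higher and 2 lower, with a list median of 0.07 beside -0.00 over all genes. Birc3, an inhibitor of apoptosis protein, read 176 and 179 units in Lef1F/F MigR1 arrays, against 78 and 77 in E2a-/- MigR1 arrays (1.20 ± 0.08, adjusted p = 3.51e-05 in limma). Apaf1, the scaffold of the apoptosome, read 525 and 638 units in Lef1F/F MigR1 arrays, against 345 and 372 in E2a-/- MigR1 arrays (0.69 ± 0.11, adjusted p = 0.00454 in limma). Both were higher with no overlap. The E2a-/- MigR1 readings of Birc3 lay below the array medians and were not told apart from background. The executioner caspase gene Casp6 was higher by 0.65 (adjusted p = 0.00059 in limma), and Diablo, which encodes an antagonist of inhibitor of apoptosis proteins, was lower, at -0.25 (adjusted p = 0.0224 in limma).

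Of the 9 measured death receptor genes, 4 were higher and 1 lower, with a list median of 0.02. Casp8, the initiator caspase that cleaves BID, read 1405 and 1240 units in Lef1F/F MigR1 arrays, against 742 and 806 in E2a-/- MigR1 arrays (0.77 ± 0.08, adjusted p = 0.000464 in limma). Cflar, which encodes the caspase-8 regulator c-FLIP, was higher by 0.68 (adjusted p = 0.00168 in limma). Tnfrsf1a, a receptor for TNF, was higher by 0.55 (adjusted p = 0.000947 in limma). The death receptor gene Fas read 89 and 105 units in Lef1F/F MigR1 arrays, against 149 and 143 in E2a-/- MigR1 arrays, and was lower (-0.59 ± 0.09, adjusted p = 0.0033 in limma). Its reading of 89 units lay within the range of the array medians. Among 12 measured other family genes, 2 were higher and 1 lower, with a list median of -0.02: Bcl2l12 at 0.33 (adjusted p = 0.0123 in limma), Bcl2l14 at 0.25 (adjusted p = 0.0482 in limma) and Bnip3, whose protein acts in mitophagy, at -0.65 (adjusted p = 0.022 in limma). The Lef1F/F MigR1 readings of Bnip3, 88.2 and 82.4 units, lay below the array medians. Of 27 measured partners and regulators, 3 were higher and 3 lower, with a list median of -0.05. Foxo1 read 353 and 395 units in Lef1F/F MigR1 arrays, against 201 and 191 in E2a-/- MigR1 arrays (0.93 ± 0.11, adjusted p = 0.00101 in limma). Ppp3ca, a calcineurin catalytic subunit, was lower, at -0.73 (adjusted p = 0.00047 in limma), as was Fbxw7, whose protein marks MCL-1 for degradation, at -0.40 (adjusted p = 0.0123 in limma). Mapk8, a stress kinase gene, was higher by 0.46 (adjusted p = 0.02 in limma).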

How the data were processed

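Total RNA of GFP+ sorted cells was hybridized to 8 Affymetrix mouse genome arrays, 2 in each of 4 groups. The authors normalized the scans with RMA (RMAExpress, version not given in the sources used here), and the deposited table holds the RMA intensity of each probe set and array on a linear scale, with no pooling. RMA makes the distributions of arrays alike, which hides any change in the total amount of RNA of a cell. The number of arrays limits the precision.

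Log2 of the intensity, with no offset, was fitted with limma 3.58.1 in R 4.3.3 as 4 group means over all 8 arrays (4 residual and 3.99 prior degrees of freedom). The 4 contrasts were MigR1-Cre against MigR1 in each line, their difference, and Lef1F/F against E2a-/- in MigR1 arrays. Tests were two-sided, with Benjamini-Hochberg adjustment over all 45037 probe sets of a contrast. The deposited values were linear where the design expected logarithms, so log2 was taken first. Levels are single-array intensities and errors are moderated standard errors (n = 2 arrays a group). The fit was tested on simulated data.

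Gene names came from the platform annotation, updated through gene identifiers to GRCm38.p6. Of the probe sets, 34945 had 1 symbol, 932 several and 9160 none, which names 18193 genes. Every member probe set was fitted and is given by its value or its range. From each pathway list, up to 4 called genes with the smallest p, or up to 2 where none passed, were named. The genes Tnfsf10, Bcl2l14, Foxo1 and Htra2 are those with the smallest p of their lists. The members and lists were chosen with earlier results of these data known. Alternatives covered the offset, filters, the normalization, array weights, the threshold, the averaging of probe sets per gene, both vectors together and arrays left out.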

Additional observations from a re-analysis of the deposited data

How the results depend on the processing

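The count of member probe sets past the threshold stayed within 1.5 times its value in 68 of 72 alternatives, and the Cre comparisons held 0 calls in every alternative run. The other 4 alternatives concern the comparison of the lines, with 5 calls. Averaging the probe sets of a gene left 1 call among 9 genes, Bcl2, and Bid then differed by -0.25 (adjusted p = 0.12 in limma). Averaging both vectors, so that all 8 arrays were compared, gave 11 calls, with Bad, Bcl2 1422938_at, Bcl2l1 1420888_at and 3 Bcl2l11 probe sets added. With 1 array left out the count ran from 3 to 5, and was 3 without E2a-/- MigR1 array 1 or array 2, where Bcl2 1437122_at, 1443837_x_at and 1457687_at remained and 1440770_at had an adjusted p of 0.0674 or 0.0584. At a threshold of 0.01 Bid did not pass. Bcl2 1457687_at passed in all 19 alternatives, with log2 differences of 0.98 to 2.33. The 0.98 is the mean over all Bcl2 probe sets, which stood for 1457687_at where probe sets were averaged. Bcl2l11 1456005_a_at differed by 0.13 to 0.37 in the Lef1F/F line, with adjusted p of 0.121 to 1 in limma. The 0.13 is likewise the mean over all Bcl2l11 probe sets.

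The labels give no replicate number, and no paired fit was planned. Lef1F/F MigR1-Cre and MigR1 arrays correlated across vectors at r = 0.9975 for each same-numbered pair, against 0.9943 and 0.9945 within a vector. The E2a-/- arrays did not show this, with 0.9986 and 0.9974 across vectors for same-numbered pairs and 0.9976 and 0.9981 within a vector. A replicate block on these pairs, chosen after seeing the data as a hint from the arrays and not the design, gave 7 calls between the lines, adding Bad 1416582_a_at and Bcl2l11 1435448_at, and 0 in the Cre comparisons. Among 740 alternatives for single probe sets, 7 lost a call and 5 gained a call. In 11 the sign changed with a shift of at least a standard error and no call in either fit. The other 717 also kept their side of the threshold, with the same sign or a shift under a standard error. A sign change with a call in either fit occurred in 0. The cause of these shifts was not tested.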

Other observations

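As a description over 8 arrays that share 2 lines, and with no test, the genes whose log2 intensity ran most like that of Bcl2 1457687_at among 523 candidate genes with a log2 range of group means of at least 1 were Plin2 (r = 0.9991), Hes1 (r = 0.998) and Rab34 (r = 0.9977). Plin2 averaged 920 units in Lef1F/F MigR1 arrays, against 244 in E2a-/- MigR1 arrays. For Bid 1417045_at they were Ptk7 (r = 0.9784), Rhox5 (r = 0.9755) and Trps1 (r = 0.9718). Rhox5 averaged 123 units in Lef1F/F MigR1 arrays, against 478 in E2a-/- MigR1 arrays. Any gene that differs mainly between the lines gives a high r with Bcl2 over these arrays.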
